A study of Saccharomyces cerevisiae with 8 samples.

Results

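The thioredoxin and peroxiredoxin cycle was followed through 8 yeast genes, chosen by their identifiers, out of 7126 genes in the deposited read-count table. They are the peroxiredoxin genes TSA1 (YML028W), TSA2 (YDR453C), AHP1 (YLR109W) and DOT5 (YIL010W), the sulfiredoxin gene SRX1 (YKL086W), the thioredoxin genes TRX1 (YLR043C) and TRX2 (YGR209C), and the thioredoxin reductase gene TRR1 (YDR353W). All 8 passed the filter on low counts that left 6174 genes for testing.

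Peroxiredoxins break down hydrogen peroxide and organic peroxides with a reactive cysteine, which becomes oxidized in the reaction. Thioredoxins return the peroxiredoxins to the reduced form, and thioredoxin reductase recharges the thioredoxins with electrons from NADPH. When peroxide is plentiful the reactive cysteine can be oxidized too far, and sulfiredoxin repairs it. In budding yeast the transcription factors Yap1 and Skn7 switch on several of these genes under oxidative stress.

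RNA of 8 Saccharomyces cerevisiae libraries was sequenced in the study, which looked for genes linked to tolerance of oxidation stress. A control strain and a mutation strain, the latter labelled as more tolerant of oxidation, were both derived from BY4741, a haploid laboratory strain of mating type a, grown in synthetic medium lacking uracil and collected in mid-exponential phase. The titles HP and nHP split each strain into 2 and 2 libraries, which gives 4 groups: nHP control, nHP mutation, HP control and HP mutation. The mutated gene, any plasmid, the peroxide dose and the number of clones or cultures stand in none of the sources used here. The series description says that the strains were grown with or without hydrogen peroxide, but the medium entry of the labels assigns peroxide to all control strain libraries and to none of the mutation strain. The groups here are those of the titles, and HP and nHP name nothing beyond them. If the medium entry were right, strain and peroxide could not be told apart. Separate cultures are not stated for the libraries of a group, so p-values measure the spread between these samples, which may be technical. All values come from bulk RNA, in which fewer cells of a type and less RNA per cell cannot be told apart.

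Library totals ran from 8296523 to 11202362 counts. Checked against the strain label were 6 genes of mating type a (MFA1, MFA2, STE2, STE6, BAR1 and AGA2). They stood between 70.8 and 809 CPM in the control strain libraries and between 1.69 and 38.9 CPM in the mutation strain libraries. CPM is the count scaled to the library total and corrected for differences in library composition. The mutation strain libraries were thus low in the defining transcripts of the labelled mating type. LEU2 and MET17, which BY4741 lacks, were at 0 counts in every one of the 8 libraries, which allows at most 0.374 CPM. Reads of HIS3 and URA3, further auxotrophic markers of BY4741, were present in all 8. URA3 stood between 3118 and 4205 CPM in 6 libraries and at 1842 and 1801 CPM in nHP mutation. In edgeR's test URA3 was lower in the mutation strain within nHP (−1.16 ± 0.13, adjusted p = 0.000142), higher in HP than in nHP in the mutation strain (0.85 ± 0.13, adjusted p = 0.000378), and had an interaction of 1.10 ± 0.18 (adjusted p = 0.00235). URA3 was thus lowest in nHP mutation, the group in which several cycle genes were highest. The part of these marker genes in the results below was not tested.

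The control sequences that these genes are known for are shown first. Motifs were searched on both strands of the 500 bases before the start codon in the RefSeq R64 genome. The Yap1 element was searched as the form TTACTAA, found for 11.8% of genes, as the form TGACTAA, found for 5.97%, and as the palindrome TTACGTAA, found for 1.25%. The element of the Skn7 type was searched as GGCNGGC. At least 1 of the 3 Yap1 forms was present in 5 of the 8 windows, those of TRX2, SRX1, TRR1, AHP1 and TSA2, and in 18.1% of the windows of all 6000 protein-coding genes searched. The Skn7-type element was present in the windows of TSA1, SRX1 and TRX2 and in 6.25% of all windows. The stress response element CCCCT was also searched. It was present in 5 of the 8 windows, those of TSA1, TSA2, AHP1, SRX1 and TRX2, and in 34.1% of all windows, and its sites are not printed. The sites of the Yap1 and Skn7 types are printed 5′ to 3′ on the strand of the gene, with the matched letters in capitals.
TRX2, chrVII:913427-913455, minus strand: tgtttatactcTTAGTAAaggatgctccc
TRX2, chrVII:913391-913419, minus strand: tggctcttttcTTACTAAgcgcgttcagt
TRX2, Skn7-type, chrVII:913368-913396, minus strand: ttcagtttccaGCCAGCCgaaagagggat
SRX1, chrXI:277969-277997, plus strand: tttttccctgaTTAGTAAgctacatcatt
SRX1, chrXI:278119-278147, plus strand: cgccattatttTTAGTCAttacagtagcc
SRX1, Skn7-type, chrXI:278093-278121, plus strand: tttttttagaaGGCCGGCccagaagtcgc
TRR1, chrIV:1182884-1182913, plus strand: tagcgccagttTTACGTAAaaccgtctatg
TRR1, chrIV:1183096-1183124, plus strand: ttagcttctccTTAGTCAtggagaaaaaa
AHP1, chrXII:368281-368304, plus strand: tgtctaTTAGTAAtcaagaaaaga
TSA2, chrIV:1366118-1366146, minus strand: agttttttttgTTAGTAAgcgctacgacg
TSA2, chrIV:1365943-1365971, minus strand: gtttacaagttTTAGTCAttgggggttgg
TSA1, Skn7-type, chrXIII:219998-220026, plus strand: ttggcaaagtcGGCTGGCaacaaaccagg
The TRX2 window held the first Yap1 form in both orientations, starting 217 and 181 bases before the start codon. In SRX1, TRR1, AHP1 and TSA2 the first and second forms stood in the opposite orientation, so the printed letters are their reverse complement. The SRX1 site of the Skn7 type holds overlapping matches on both strands, and none of the printed Yap1 matches shares a base with another. TRX2 and SRX1 were the members with both a Yap1 element and a Skn7-type element. These are matches of letters in a reference genome, not measurements of binding, and the windows of DOT5 and TRX1 held no match to any of the elements searched.

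Because TSA1 with TSA2 and TRX1 with TRX2 are paralog pairs, their coding sequences were compared before their counts were set side by side. TSA1 and TSA2 share 78.5% of their aligned coding bases, and TRX1 and TRX2 share 73.0%. The 90-base stretch in which each pair is most alike is shown, with the differing bases in capitals.
TSA1, chrXIII:220462-220551, plus strand: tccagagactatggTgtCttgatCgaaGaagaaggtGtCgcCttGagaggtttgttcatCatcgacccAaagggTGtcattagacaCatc
TSA2, chrIV:1365249-1365338, minus strand: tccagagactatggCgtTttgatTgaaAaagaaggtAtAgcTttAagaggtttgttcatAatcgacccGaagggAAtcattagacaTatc
TRX1, chrXII:231874-231963, minus strand: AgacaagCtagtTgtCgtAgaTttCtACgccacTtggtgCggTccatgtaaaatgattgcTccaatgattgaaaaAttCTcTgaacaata
TRX2, chrVII:913085-913174, minus strand: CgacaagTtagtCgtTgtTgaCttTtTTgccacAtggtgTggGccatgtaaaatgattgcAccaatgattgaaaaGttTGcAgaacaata
Even there the TSA pair differs at 13 positions and the TRX pair at 17. No stretch of 25 coding bases of any of the 8 genes occurs elsewhere in the R64 genome. Each of the 8 has 1 coding exon, and none overlaps another annotated gene there.

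Levels of different genes were compared as the authors' deposited RPKM, which is a count scaled to library total and gene length. AHP1, whose product prefers organic peroxides, was the most abundant of the 8, at a mean of 5505 RPKM over the 8 libraries, and ranked 13 among all genes. TSA1, the main cytosolic peroxiredoxin, followed at 2517 RPKM (rank 40), and TRX2 at 1829 (rank 80). TRR1 had a mean of 914 RPKM, TRX1 of 700.0 and TSA2, the stress-induced paralog of TSA1, of 233. SRX1 at 126 RPKM and DOT5, a nuclear thiol peroxidase, at 99.4 were the least abundant. AHP1, TSA1 and TRX2 led in this order in every library. Below them the order depended on the group. TRX1 exceeded TRR1 in both nHP control libraries, at 770.5 and 822 against 658 and 783 RPKM, and TRR1 exceeded TRX1 in the other 6. SRX1 exceeded DOT5 in all but both nHP control libraries and HP mutation replicate 2.

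Among the 4 peroxiredoxin genes, AHP1 made up 60.5% to 69.8% of the summed RPKM of a library and TSA1 25.6% to 33.4%. TSA2 contributed 1.22% to 4.68% and DOT5 0.725% to 1.90%. The summed peroxiredoxin RPKM was 5917 and 6809 in the nHP control libraries, 9872 and 11215 in nHP mutation, 9618 and 9715 in HP control, and 7286 and 6401 in HP mutation. The nHP mutation and HP control libraries were thus all higher than the other 4.

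Values of 1 gene across libraries are given as CPM after TMM scaling, a correction for differences in library composition, in the order of replicates 1 and 2. TSA1 stood at 862 and 1175 CPM in nHP control, 1665 and 2047 in nHP mutation, 1784 and 1821 in HP control, and 1399.9 and 1227 in HP mutation. AHP1 stood at 2077 and 2346 CPM in nHP control, 3765 and 4554 in nHP mutation, 3249 and 3314 in HP control, and 2317 and 1994 in HP mutation. In both genes the nHP mutation and HP control libraries were the 4 highest. The HP mutation libraries lay above both nHP control libraries for TSA1 but overlapped them for AHP1.

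TSA2 stood at 127 and 112 CPM in nHP control, 108 and 88.7 in nHP mutation, 167 and 128 in HP control, and 198 and 167 in HP mutation. The separation of its HP control from its nHP control libraries held in CPM but not in RPKM, where HP control replicate 2 had 218 and nHP control replicate 1 had 223. It was therefore lowest in the group where TSA1 and AHP1 reached their highest single values, and highest in HP mutation. DOT5 ranged from 57.6 to 74.0 CPM over all 8 libraries. Its groups overlapped in each of the 4 comparisons below.

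SRX1, whose product repairs over-oxidized Tsa1, stood at 19.7 and 31.1 CPM in nHP control, 70.4 and 60.6 in nHP mutation, 61.1 and 65.9 in HP control, and 48.6 and 33.2 in HP mutation. Its highest library was 3.57-fold above its lowest, the widest span of the 8 genes, and it also had the fewest reads, 182 in nHP control replicate 1. Both nHP control libraries were below all others.

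The cytosolic thioredoxin genes differed from each other. TRX2 stood at 409 and 472 CPM in nHP control, 622 and 675 in nHP mutation, 613 and 716 in HP control, and 597 and 521 in HP mutation, so nHP control was below all other libraries. TRX1 stood at 231 and 252 CPM in nHP control, 201 and 212 in nHP mutation, 209 and 268.5 in HP control, and 182 and 189 in HP mutation. TRX1 was lowest in HP mutation, and its nHP control and HP control libraries overlapped. TRR1, the enzyme gene that serves both thioredoxins, stood at 608 and 739.7 CPM in nHP control, 1106 and 1322 in nHP mutation, 916 and 1011 in HP control, and 732 and 649 in HP mutation. Both nHP mutation libraries exceeded both HP control libraries, and nHP control and HP mutation overlapped.

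**Figure D1:**
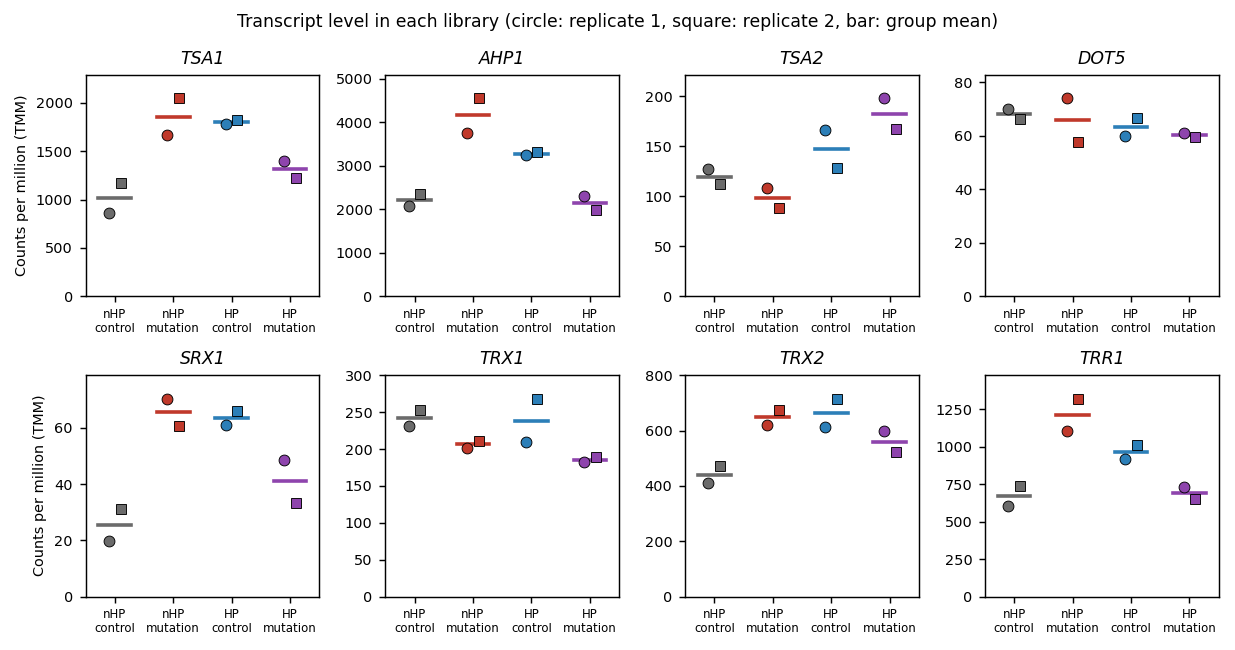
Transcript level of the 8 genes in CPM after TMM scaling (vertical axes, from 0) in each of the 8 libraries, by group (horizontal axes); circles are replicate 1, squares replicate 2 and short lines group means of 2. TSA1, AHP1, SRX1, TRX2 and TRR1 share a shape in which nHP mutation and HP control are high, TSA2 is highest in HP mutation, and DOT5 stays between 57.6 and 74.0.

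Changes were called at an adjusted p under 0.05 by edgeR's quasi-likelihood test, Benjamini-Hochberg adjusted over all 6174 genes. Standard errors of log2 fold changes follow ±, with n = 2 libraries in each group. The comparisons share libraries with one another: nHP control, for example, is the baseline both for the strain difference in nHP and for the title difference in the control strain.

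Between the strains within nHP, 5 of the 8 genes were higher in the mutation strain, while 21.3% of all genes tested were called, 11.4% as higher. None of the 8 was called lower by the edgeR test on TMM-scaled counts, nor by DESeq2, against 9.91% of all genes, and 0 were lower at an unadjusted p under 0.05. Other settings did call lower members, such as TRX1 without composition scaling (−0.36, adjusted p = 0.0346). SRX1 rose most, by 1.37 ± 0.20 on the log2 scale (2.58-fold, adjusted p = 0.00102). Of the peroxiredoxins, AHP1 rose by 0.91 ± 0.14 (adjusted p = 0.00126) and TSA1 by 0.87 ± 0.16 (adjusted p = 0.00318). The thioredoxin side of the cycle gave 1.80-fold for TRR1 and 1.47-fold for TRX2 (adjusted p = 0.00126 and 0.00711). TRX1 at −0.23 ± 0.11, TSA2 at −0.28 ± 0.14 and DOT5 at −0.05 ± 0.12 did not pass (adjusted p = 0.177, 0.193 and 0.805), although the TRX1 and TSA2 libraries of the 2 strains did not overlap. The median log2 fold change of the 8 was 0.70, beside −0.02 over all genes tested. Without nHP control replicate 1, in which all 8 but TSA2 and DOT5 were lower than in replicate 2, 3 of the 8 passed, TSA1 at 0.67 (adjusted p = 0.0634) and TRX2 at 0.47 (adjusted p = 0.102) being lost. TRX2 was also lost without nHP mutation replicate 2 (0.50, adjusted p = 0.0665).

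In the HP libraries the strain difference ran the other way. Of the 8 genes, 5 were lower in the mutation strain, while 28.7% of all genes were called and 14.0% were called lower, and none was called higher by the same edgeR test with all 8 libraries, nor by DESeq2, against 14.7% of all genes. At an unadjusted p under 0.05, 1 was higher, TSA2, which other settings did call. SRX1 fell by 0.63 ± 0.19, AHP1 by 0.61 ± 0.14 and TRR1 by 0.48 ± 0.13 on the log2 scale (adjusted p = 0.0305, 0.00929 and 0.0196). TSA1 fell by 0.46 ± 0.16 and TRX1 by 0.36 ± 0.11 (adjusted p = 0.0481 and 0.033). TRX2 at −0.25 ± 0.12 and TSA2 at 0.31 ± 0.14 did not pass (adjusted p = 0.133 and 0.11), nor did DOT5 at −0.07 ± 0.12. The median of the 8 was −0.41, beside −0.05 over all genes.

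These HP calls lay near the threshold and depended on single libraries. The 5 became 0 without HP mutation replicate 2. They became 1 when HP mutation replicate 1 was left out (SRX1), 1 without HP control replicate 2 (AHP1), 2 without either nHP mutation replicate and 3 without either nHP control replicate. TSA1 was not called when any of the 8 libraries was left out (adjusted p from 0.0523 to 0.252), and TRX1 passed in 1 of the 8, without HP control replicate 1. The direction of all 5 was kept in each of the 8. TSA2 passed without HP control replicate 1 (0.55, adjusted p = 0.0031). Fitting only the 4 HP libraries called 3 of the 8, AHP1, TSA1 and TRR1.

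For HP against nHP in the control strain, the comparison that asks what the HP title adds in that strain, 3 of the 8 genes rose, while 1.96% of all genes were called, 1.44% as higher and 0.518% as lower. SRX1 rose by 1.33 ± 0.20 (2.51-fold, adjusted p = 0.00437), TSA1 by 0.82 ± 0.16 (adjusted p = 0.0205) and TRX2 by 0.59 ± 0.12 (adjusted p = 0.0272). AHP1 at 0.57 ± 0.14 and TRR1 at 0.52 ± 0.13 had no overlap between the groups but missed the threshold (adjusted p = 0.076 and 0.0862), and TSA2 stood at 0.30 ± 0.14 (adjusted p = 0.45). TRX1 at −0.02 ± 0.11 and DOT5 at −0.10 ± 0.12 had overlapping groups. The median of the 8 was 0.54, beside 0.00 over all genes. Without nHP control replicate 1 none of the 3 passed, with SRX1 at 1.03 (adjusted p = 0.0523), TSA1 at 0.62 (adjusted p = 0.36) and TRX2 at 0.49 (adjusted p = 0.402). TSA1 and TRX2 were also lost without HP mutation replicate 1 (adjusted p = 0.0521 and 0.052), and TRX2 without nHP control replicate 2 (0.131) or HP control replicate 2 (0.0691).

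In the mutation strain the same title difference went down for 4 of the genes. TSA2 was the exception and rose by 0.89 ± 0.14 (1.86-fold, adjusted p = 0.000475). AHP1 fell by 0.95 ± 0.14 (adjusted p = 0.000331), TRR1 by 0.81 ± 0.13 (adjusted p = 0.000527), SRX1 by 0.67 ± 0.19 (adjusted p = 0.0137) and TSA1 by 0.50 ± 0.16 (adjusted p = 0.0205). TRX2 at −0.21 ± 0.12, TRX1 at −0.15 ± 0.11 and DOT5 at −0.13 ± 0.12 did not pass (adjusted p = 0.155, 0.282 and 0.392). Of all genes, 24.1% were called lower and 25.2% higher in this comparison, 49.3% in all, so a count of 5 of 8 is not far from the background. AHP1, TRR1 and TSA2 passed whichever of the 8 libraries was left out. TSA1 was lost without nHP mutation replicate 2 (−0.33, adjusted p = 0.175) and without HP mutation replicate 1 or 2 (adjusted p = 0.0632 and 0.152). SRX1 was lost without nHP mutation replicate 1 (−0.55, adjusted p = 0.104) and without HP mutation replicate 2 (−0.43, adjusted p = 0.134), and 3 of the 8 genes passed without the latter.

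**Figure D2:**
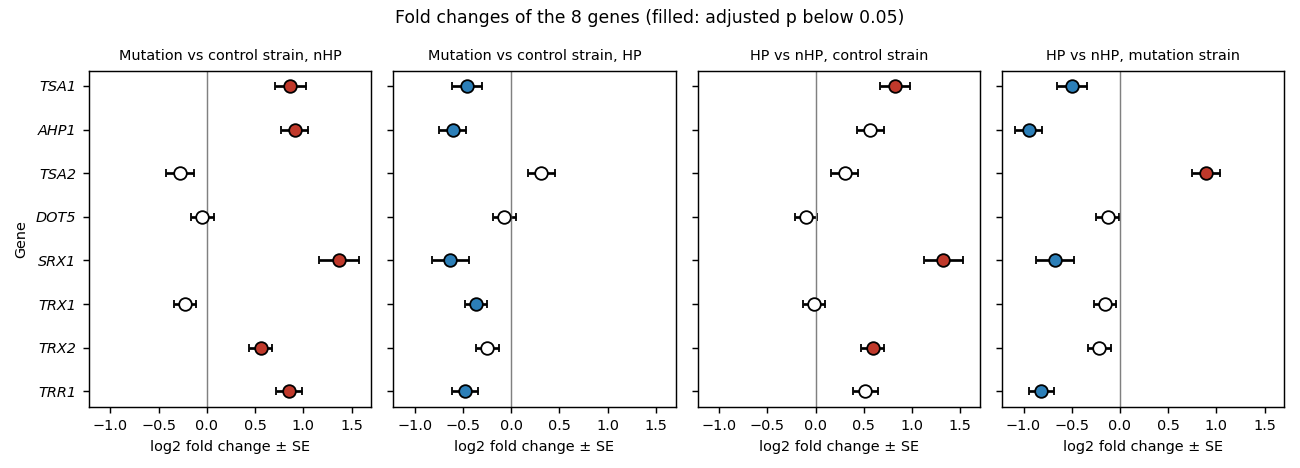
log2 fold change (horizontal axes, points with bars of 1 standard error, 2 libraries per group) of the 8 genes (vertical axis) in the 4 pairwise comparisons; filled points have an adjusted p below 0.05 in edgeR's quasi-likelihood test, red for higher and blue for lower. SRX1, AHP1, TSA1 and TRR1 lie right of 0 in the first panel and left of 0 in the second, and TSA2 is the filled point on the right in the fourth.

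Whether the title difference itself depended on the strain was tested with the interaction, which subtracts the HP against nHP change of the control strain from that of the mutation strain. It passed for 6 of the 8 genes, 5 negative and 1 positive, while 29.2% of all genes were called, 14.6% in each direction. SRX1 had −2.00 ± 0.28 (adjusted p = 0.0013). AHP1 had −1.52 ± 0.20 (adjusted p = 0.00111), TRR1 −1.33 ± 0.19 (adjusted p = 0.0013), TSA1 −1.32 ± 0.22 (adjusted p = 0.0024) and TRX2 −0.80 ± 0.17 (adjusted p = 0.00588). These 5 passed whichever of the 8 libraries was left out and under each of the 9 other settings, the weakest being TRX2 without 1 library (adjusted p = 0.0474). TSA2, at 0.59 ± 0.20 (adjusted p = 0.0441), had the opposite sign, and it passed with 2 of the 8 libraries left out in turn, nHP mutation replicate 1 and HP control replicate 1, and was lost without each of the other 6 (adjusted p from 0.0525 to 0.192). TRX1 at −0.14 ± 0.16 and DOT5 at −0.02 ± 0.17 did not pass (adjusted p = 0.549 and 0.926). The median of the 8 was −1.06, beside 0.01 over all genes.

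**Figure D3:**
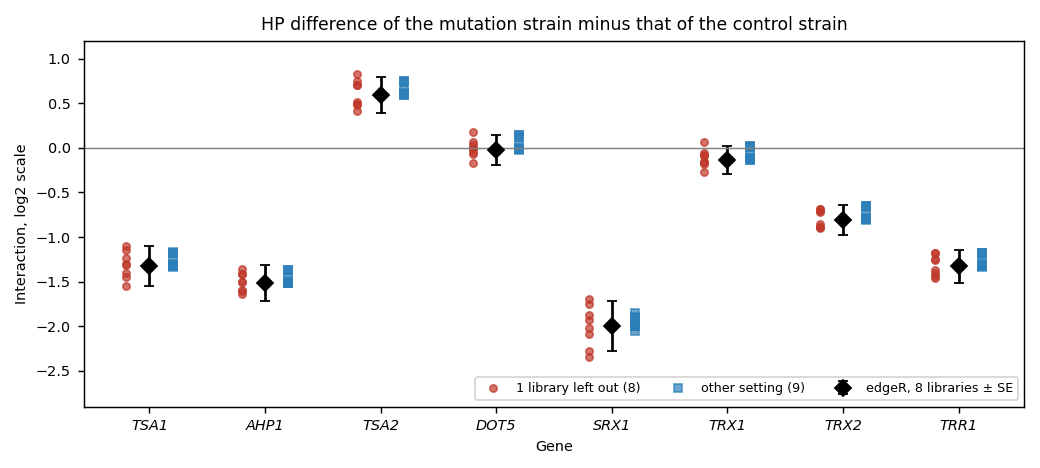
Interaction of strain and title on the log2 scale (vertical axis) for the 8 genes (horizontal axis): black diamonds with 1 standard error are the edgeR values from 8 libraries, red circles the values with 1 library left out, and blue squares those of the 9 other settings. For TSA1, AHP1, SRX1, TRX2 and TRR1 every value lies below 0, for TSA2 every value lies above 0, and those of DOT5 and TRX1 fall on both sides.

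The shift of the whole transcriptome was small beside these values. The nHP mutation libraries had TMM factors of 0.968 and 0.914, against 1.01 to 1.04 in the other 6. Without composition scaling the median of all genes moved from −0.02 to −0.15 in the nHP strain comparison and from 0.02 to 0.14 for HP against nHP in the mutation strain, while SRX1 stood at 1.24 and AHP1 at 0.78 in the former and AHP1 at −0.82 and TSA2 at 1.01 in the latter. Each of the directions called above was kept. In the interaction the median of all genes moved from 0.01 to 0.16. The interaction values of TRX1 and DOT5, which were not called, changed sign there.

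Paralogs differed in how they were used across the groups, which ratios of RPKM within a library show free of depth and scaling. The ratio of TRX2 to TRX1 was 1.75 and 1.85 in nHP control, 3.06 and 3.16 in nHP mutation, 2.90 and 2.64 in HP control, and 3.24 and 2.73 in HP mutation. TRX2 was thus the more abundant thioredoxin transcript in all 8 libraries, with the smallest lead in nHP control. The ratio of TSA2 to TSA1 was 0.147 and 0.0951 in nHP control, 0.0649 and 0.0433 in nHP mutation, 0.0934 and 0.0702 in HP control, and 0.141 and 0.136 in HP mutation. The nHP mutation libraries had the lowest TSA2 share and did not overlap any other group, while HP mutation lay within the span of nHP control. TRR1 over the summed thioredoxin genes gave 0.310 and 0.334 in nHP control, 0.440 and 0.488 in nHP mutation, 0.365 and 0.336 in HP control, and 0.307 and 0.299 in HP mutation. With 2 libraries per group these ratios are given as values and were not tested.

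**Figure D4:**
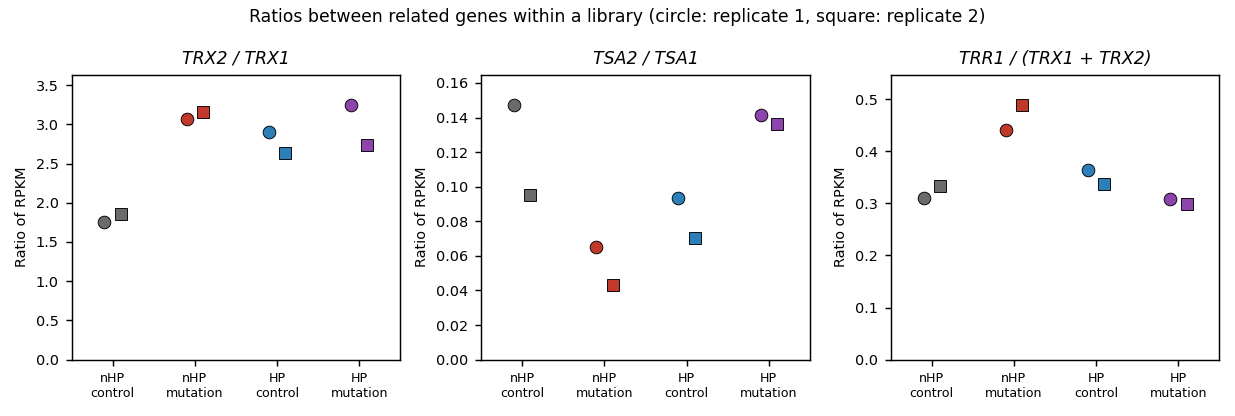
Ratio of RPKM (vertical axes, from 0) of TRX2 to TRX1, of TSA2 to TSA1 and of TRR1 to both thioredoxin genes in each library, by group (horizontal axes); circles are replicate 1 and squares replicate 2. The nHP control libraries have the lowest TRX2 to TRX1 ratio, and the nHP mutation libraries have the lowest TSA2 to TSA1 ratio and the highest TRR1 ratio.

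Genes around the cycle were described from lists of 3 mitochondrial counterparts, 4 regulators, 5 thioredoxin-dependent reductases, 6 genes of NADPH supply and 8 other Yap1 targets, all of which were tested. Their counts stand beside the shares of all genes given above, 21.3% called between strains within nHP and 28.7% within HP, and 1.96% from nHP to HP in the control strain and 49.3% in the mutation strain. Of the 4 regulators 1 rose in the nHP strain comparison, 1 rose from nHP to HP in the mutation strain, and none fell in any of the 5 comparisons by edgeR or by DESeq2. YAP1, the activator named above, rose by 0.45 ± 0.09 in the nHP strain comparison, a call lost when nHP control replicate 1 was left out (adjusted p = 0.0591), and YBP1, which stabilizes Yap1, rose by 0.36 ± 0.09 for HP against nHP in the mutation strain, but not without nHP mutation replicate 2 or HP mutation replicate 2 (highest adjusted p = 0.0635). SKN7 and HYR1, the peroxide sensor for Yap1, were called in none of the 5 comparisons by edgeR, and no regulator had a called interaction.

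Of the 3 mitochondrial counterparts, 2 rose in the mutation strain within HP and the same 2 rose from nHP to HP in the mutation strain, while 1 fell in the nHP strain comparison, where 28.7%, 49.3% and 21.3% of all genes were called. PRX1, the mitochondrial peroxiredoxin, rose in the mutation strain within HP by 0.73 ± 0.11 (adjusted p = 0.00112) and from nHP to HP in the mutation strain by 0.70 ± 0.12 (adjusted p = 0.000547), where AHP1 and TSA1 fell. TRR2, the mitochondrial thioredoxin reductase gene, stood at 106 and 98.7 CPM in nHP control, 80.1 and 76.4 in nHP mutation, 112 and 94.5 in HP control, and 148 and 131 in HP mutation. It rose from nHP to HP in the mutation strain by 0.84 ± 0.10 (adjusted p = 0.000121), with a positive interaction of 0.83 ± 0.15 (adjusted p = 0.00292), both of which held without any 1 of the 8 libraries. TRR2 was also the gene that fell within nHP, by 0.39 ± 0.11 (adjusted p = 0.0222), a call lost without any 1 of the 4 nHP libraries (highest adjusted p = 0.18), and its rise within HP was lost without HP mutation replicate 1 (adjusted p = 0.0898). The remaining mitochondrial gene, TRX3, was not called in any of the 5 comparisons.

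Of the 5 reductases fed by thioredoxin, 2 rose from nHP to HP in the control strain, where 1.96% of all genes were called. In the mutation strain, where 49.3% were called, 3 rose and 1 fell. Between strains 1 rose within nHP (21.3% of all genes called), which became 0 without nHP control replicate 1 or nHP mutation replicate 2. Within HP (28.7%) 1 rose, which became 0 without HP mutation replicate 1, and 2 fell, MET16 (adjusted p = 0.0492) and RNR1 (adjusted p = 0.046). These 2 falls became 0 without HP mutation replicate 2, HP control replicate 2 or either nHP control replicate, and 1 when HP mutation replicate 1 or one of the nHP mutation libraries was left out. MXR1 and MET16 rose from nHP to HP in both strains. MXR1, a methionine sulfoxide reductase gene, stood at 34.3 and 37.3 CPM in nHP control, 37.4 and 41.7 in nHP mutation, 131 and 161 in HP control, and 129.5 and 109 in HP mutation. It rose by 2.03 ± 0.13 in the control strain (adjusted p = 7.13e-06) and by 1.59 ± 0.13 in the mutation strain (adjusted p = 1.13e-05). MET16, which reduces activated sulfate, rose by 1.42 ± 0.17 and 1.44 ± 0.18 (adjusted p = 0.000753 and 0.00014). All 4 HP libraries of MXR1 thus exceeded all 4 nHP libraries, a split by title that among the 8 cycle genes TSA2 alone showed, with 128 CPM in HP control replicate 2 just above 127 in nHP control replicate 1. In RPKM the order of those 2 libraries was reversed, at 218 and 223, so that the TSA2 split rests on the scaling. RNR1, a large subunit gene of ribonucleotide reductase, instead fell from nHP to HP in the mutation strain by 1.36 ± 0.15 (adjusted p = 6.19e-05), with an interaction of −1.23 ± 0.21 (adjusted p = 0.00266).

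Of the 6 genes of NADPH supply, 1 rose and 1 fell in the nHP strain comparison (21.3% of all genes called), both lost without either nHP control replicate. In the HP strain comparison (28.7%) 1 rose and 3 fell, GND1, TKL1 and SOL3. The 3 falls became 0 without either HP mutation replicate and 1 without HP control replicate 2 or either nHP control replicate, and SOL3 (adjusted p = 0.0469) passed in 1 of the 8 fits with a library left out and in 2 of 10 other settings. From nHP to HP, 1 rose in the control strain (1.96%), and 2 rose and 1 fell in the mutation strain (49.3%). GND2, a minor form of phosphogluconate dehydrogenase, rose in the mutation strain within HP by 1.43 ± 0.27 (adjusted p = 0.00303) and from nHP to HP in the mutation strain by 1.58 ± 0.27 (adjusted p = 0.000738). ZWF1, which starts the pentose phosphate pathway, rose in the nHP strain comparison (0.50 ± 0.12) and from nHP to HP in the control strain (0.58 ± 0.12) and the mutation strain (0.34 ± 0.12), but each of these calls was lost without at least 3 of the 8 libraries (highest adjusted p = 0.101, 0.337 and 0.284). Of the other Yap1 targets, GSH1, for glutathione synthesis, followed SRX1 most closely. It rose by 0.64 ± 0.10 in the nHP strain comparison (adjusted p = 0.00163) and by 0.62 ± 0.10 from nHP to HP in the control strain (adjusted p = 0.00769, and 0.168 without nHP control replicate 1), and its interaction was −0.87 ± 0.15 (adjusted p = 0.00239). OYE2, an NADPH oxidoreductase gene, fell in the mutation strain within HP by 0.61 ± 0.10 (adjusted p = 0.00141). YCF1 also fell there, by 0.25 ± 0.09 (adjusted p = 0.0473 by edgeR), but passed in only 2 of 10 other settings. Its call was lost whichever of the 8 libraries was left out. From nHP to HP, 1 of these 8 Yap1 targets rose in the control strain (1.96% of all genes called), and 3 rose and 2 fell in the mutation strain (49.3%). Among the 3 rises, FLR1 passed in 7 of 10 other settings and not with DESeq2. The 3 rises became 1 without HP mutation replicate 1, with FLR1 (adjusted p = 0.0499 in the full fit) and OYE3 lost, and the 2 falls became 1 without either HP mutation replicate or nHP mutation replicate 2, with OYE2 lost. Between strains 2 rose in the nHP strain comparison (21.3%) and 2 fell in the HP strain comparison (28.7%), counts that became 1 with 1 library left out in 6 and 7 of the 8 cases.

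Across the 8 libraries, the gene whose log2 CPM was most like that of each member was sought among 5429 other genes that averaged 10 CPM or more. GSH1 was the most like SRX1 (Pearson r = 0.990 over 8 libraries), ADH6 the most like TRX2 (0.972), PRE8 the most like TRR1 (0.981), CKI1 the most like AHP1 (0.977) and TUF1 the most like TSA1 (0.974). For TSA2 it was UBP15 (0.993), for TRX1 TRS33 (0.973) and for DOT5, whose libraries hardly varied, BOL3 (0.884). Many genes were about as alike for some members. Above r = 0.95 lay 45 genes for TSA2, 21 for TRR1, 18 for AHP1 and 12 for TRX1. For TSA1 there were 4, for TRX2 3, for SRX1 2 and for DOT5 0. These are descriptions over 4 groups of 2 libraries with shared depth and scaling, so r mostly follows the group means. The 8 cycle genes together held 0.458% and 0.528% of all counts in nHP control, 0.736% and 0.824% in nHP mutation, 0.714% and 0.745% in HP control, and 0.563% and 0.499% in HP mutation.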

How the data were processed

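Per the labels' protocols, total RNA was turned into libraries with a NEBNext Ultra kit. The submitters' processing notes name TopHat2 2.0.9. How reads were counted, whether by strand, and on which genome build and annotation, is not stated by any label or header, so reads of antisense transcripts cannot be told apart. The deposited counts are whole reads per gene. The deposited RPKM values equal counts divided by the library total and 1 length per gene, which was checked for 6762 genes, and for 99.9% of 5872 genes that length is the R64 coding length. A deposited summary of genes per RPKM range was not used.

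Counts of 8 libraries were fitted in 1 model of 4 group means with edgeR 4.0.16 (R 4.3.3; TMM, edgeR's filter on low counts, quasi-likelihood F test, two-sided, 4 residual degrees of freedom, Benjamini-Hochberg adjustment over 6174 genes). The common dispersion was 0.00651. Standard errors were derived from the F statistic. The procedure was also run on simulated counts, with changes planted in a small set of genes and the common dispersion for all genes. That setting is simpler than these data, so it does not give their error rates. Alternatives used limma 3.58.1, DESeq2 1.42.0 and the settings named at the end. Sequences came from RefSeq R64 by gene identifier, aligned with Biopython 1.88. Figures used matplotlib 3.10.9. All 8 members were named in every comparison; named genes outside them come from 5 lists or from the likeness search, and those given values were picked after values were seen. The members and lists were chosen with earlier results of these data known. Replicates of a group differed beyond sampling noise (chi-square per degree of freedom from 5.73 to 21.1). The limit given for a count of 0 covers counting error only.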

Additional observations from a re-analysis of the deposited data

Results flagged for a closer look

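The HP difference differed between the 2 strains, by the interaction test in edgeR's quasi-likelihood model with Benjamini-Hochberg adjustment, for 6 of the 8 cycle genes. The interaction was −1.32 for TSA1, −1.52 for AHP1, −2.00 for SRX1, −0.80 for TRX2 and −1.33 for TRR1 on the log2 scale, and 0.59 for TSA2. For the first 5, HP libraries in CPM were above nHP libraries in the control strain and below them in the mutation strain, in both replicates of each group. In RPKM, however, TRX2 in HP mutation replicate 1 (1929) was above nHP mutation replicate 1 (1909). For TSA2 the HP libraries were above in both strains in CPM, though in RPKM HP control replicate 2 (218) was below nHP control replicate 1 (223). The contrary medium entry of the labels moves with strain, and its part in these values cannot be told apart.

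The same test passed for 7 of the 26 genes of the related lists, a share close to the 29.2% of all genes called. TRR2 had 0.83, RNR1 −1.23 and GSH1 −0.87, each past the threshold whichever library was left out. GND2, a pentose phosphate gene, had 1.71 but was lost without nHP mutation replicate 2 (adjusted p = 0.0548). TKL1, for transketolase, had −0.66 and was lost without nHP control replicate 1, nHP mutation replicate 2 or HP mutation replicate 1 (highest adjusted p = 0.075). The methionine sulfoxide reductase gene MXR2 had 0.54 and the vacuolar transporter gene YCF1 −0.48, and both were lost without nHP control replicate 1 or 2, nHP mutation replicate 2 or HP mutation replicate 1 (highest adjusted p = 0.107 and 0.0828). MXR2 passed under all 9 other settings, while YCF1 was also lost without composition scaling and on log2 RPKM with either pseudocount (highest adjusted p = 0.0688).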

How the results depend on the processing

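With 1 library left out, members called ranged from 3 to 5 (5 in the full fit) in the nHP strain comparison, 0 to 5 (5) in HP, 0 to 4 (3) for HP against nHP in the control strain, 3 to 5 (5) in the mutation strain and 5 to 6 (6) in the interaction. All genes called ranged, in the same order, from 418 to 1860 (1318), 661 to 2495 (1769), 51 to 218 (121), 1773 to 3466 (3043) and 724 to 2554 (1803). In the HP strain comparison the 5 members became 3 with a filter of 10 CPM in 2 libraries, 2 on log2 RPKM (either pseudocount, 1 or 0.1), and 3 with only the 4 libraries compared, where 1042 of all genes were called. For HP against nHP in the control strain the 3 became 5 with DESeq2 and 1 with only the 4 libraries compared (72 of all genes), and in the mutation strain the 5 became 3 on log2 RPKM with either pseudocount. The cause was not tested.

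The main model did not pair the samples by replicate number. Replicate differences correlated between groups at −0.033 to 0.204, not all above 0.1. Beyond these correlations and the replicate block below, a batch shared by replicates of the same number was not tested. A replicate block called 6, 6, 5, 5 and 6 members in the order above: it added TSA2, lower in nHP (adjusted p = 0.0194) and higher in HP (adjusted p = 0.00616), against the direction of the others called, and AHP1 (0.57) and TRR1 (0.52) in the control strain. It called 220 of all genes for HP against nHP in the control strain.

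Values near 0 that passed no test changed sign. DOT5 ranged with 1 library left out from −0.23 to 0.13 in the nHP strain comparison, −0.11 to 0.029 in HP, −0.28 to 0.074 for HP against nHP in the mutation strain and −0.17 to 0.18 in the interaction, and TRX1 from −0.21 to 0.14 for HP against nHP in the control strain and −0.28 to 0.060 in the interaction. On log2 RPKM (pseudocount 1, then 0.1) DOT5 stood at 0.0084 and 0.0087 in the mutation strain, and at 0.139 and 0.141 in the interaction, where it had 0.12 without composition scaling, 0.0011 without a filter and 0.033 with the stricter filter; TRX1 had 0.014 without composition scaling and 0.026 on both RPKM scales. Among the cycle genes SRX1 had the fewest reads, 182 in nHP control replicate 1. Its nHP control libraries stood at 19.7 and 31.1 CPM, and the part of depth in this spread was not tested.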
